A study of Mus musculus with 4 samples.

Results

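The arrays carried 4460 probes for long intergenic noncoding RNAs (lincRNAs), of 56605 probes that were not controls. A probe was taken as a member where its gene name, systematic name or description held the word lincRNA followed by a chromosome range, and each distinct range was counted once, which gave 3240 ranges. They were measured in 2 mouse testicular lines with 2 arrays each. The labels call both germ cell lines. Both are known to carry the SV40 large T antigen: GC-1 is derived from type B spermatogonia, and GC-2, which also holds a temperature-sensitive p53, from spermatocytes. Both were grown in high-glucose DMEM with serum, and collected in Trizol close to confluence. Their total RNA was primed with oligo-dT, amplified and given a Cy3 label. Whether the replicates came from separate cultures is not stated in the titles, and the p-values therefore cover only the scatter of these samples, which may be technical.

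A lincRNA is a long transcript from a stretch between protein-coding genes that does not code for a protein. Many were first mapped as stretches of chromatin with marks of active transcription, and for most of them neither the exact ends nor a function is known. A few are well studied, such as Neat1, which builds the nuclear paraspeckle, and Hotair, which lies in the HoxC cluster. The testis is a tissue in which many such RNAs are transcribed, and some of them act on the gene beside them while others act elsewhere.

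The ranges were 62 to 538251 bases long with a median of 7224.5 bases on genome build mm9. Ranges overlapped: 1745 of them shared bases with another range, and all together they formed 2156 separate stretches. Each probe was 60 bases long, with 2231 labelled for the forward and 2229 for the reverse strand. The files gave a position for 4369 probes, of which 4368 lay inside their range, and the direction of all 4369 equalled the labelled strand. In all, 2272 ranges had 1 probe, 782 had 2 and 186 had 3 to 8, and 832 ranges had probes for both strands. Not all ranges lay clear of known genes. A probe of a protein-coding gene lay inside 228 of them, and 174 lay between 2 probe positions of 1 named gene.

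Probes that cover the same bases are printed first, because they let the strands, and the array's separate ranges, be compared at a single site. Each line gives the probe's position and strand, read 5′ to 3′ as on the array, and capitals mark the bases whose positions the partner probe covers on the other strand. The range chr13:73472571-73483846 moved in opposite directions on its strands.
Eprn range, chr13:73479856-73479915, forward: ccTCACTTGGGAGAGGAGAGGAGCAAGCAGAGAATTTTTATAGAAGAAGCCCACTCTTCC
Eprn range, chr13:73479858-73479917, reverse: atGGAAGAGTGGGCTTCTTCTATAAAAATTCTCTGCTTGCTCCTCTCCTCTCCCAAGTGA
The range chr12:77544397-77564122, near Ppp1r36, did so too, over 35 shared bases.
Ppp1r36 range, chr12:77553108-77553167, forward: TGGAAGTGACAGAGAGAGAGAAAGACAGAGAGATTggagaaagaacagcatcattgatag
Ppp1r36 range, chr12:77553083-77553142, reverse: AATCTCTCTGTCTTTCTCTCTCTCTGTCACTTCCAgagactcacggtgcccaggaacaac
The range chr6:3333825-3349525, near Samd9l, rose on both strands, with 38 shared bases.
Samd9l range, chr6:3349390-3349449, forward: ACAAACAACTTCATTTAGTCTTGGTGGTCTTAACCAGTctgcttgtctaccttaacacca
Samd9l range, chr6:3349368-3349427, reverse: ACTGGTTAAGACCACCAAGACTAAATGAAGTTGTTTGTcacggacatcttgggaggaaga
In the next pairs the capitals mark bases shared on the same strand, by probes that the array assigns to different overlapping ranges. The first pair, of ranges chr8:89996710-90049453 and chr8:90048940-90049461 beside the cerebellin gene Cbln1, fell together and shared 45 bases. The second, of ranges chr9:96670035-96682896 and chr9:96680338-96682881 beside Zbtb38, rose together and shared 47 bases.
Cbln1 side, long range, chr8:90049387-90049446, forward: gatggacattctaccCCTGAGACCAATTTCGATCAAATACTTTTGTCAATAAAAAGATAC
Cbln1 side, short range, chr8:90049402-90049461, forward: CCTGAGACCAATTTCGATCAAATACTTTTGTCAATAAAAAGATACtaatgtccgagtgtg
Zbtb38 side, long range, chr9:96682835-96682894, forward: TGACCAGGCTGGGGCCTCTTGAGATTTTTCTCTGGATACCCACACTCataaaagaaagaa
Zbtb38 side, short range, chr9:96682822-96682881, forward: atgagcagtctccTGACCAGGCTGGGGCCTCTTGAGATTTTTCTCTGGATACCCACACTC

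The hexamer AAGAAG lay in 5 of the 8 largest falls and in 1 of the 8 largest rises. The 5 falls include 1 pair of abutting probes near Gsta4, and the 8 rises include 1 pair of overlapping probes near Zbtb38. For such runs 4 further probes are shown. Capitals mark the longest unbroken run of C and T in the first and of A and G in the others, a feature picked after the values were seen. The letters to mark were set by the line in which the probe was higher, so the contrast between the capitals is no result. The first probe also holds a run of A and G that is longer than its capitals. In 1 of the falls not printed here the longest run of A and G was 4 bases. The first probe rose in GC-2, the next ones fell, and the last was measured in GC-1 alone. Over whole probes the share of A and G was 36.7% to 51.7% in the 8 rises and 36.7% to 71.7% in the 8 falls, which overlap.
Near Jun, rose, chr4:94822842-94822901, forward: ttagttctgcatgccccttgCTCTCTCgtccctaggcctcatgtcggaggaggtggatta
Near Tsc22d2, fell, chr3:58125111-58125170, forward: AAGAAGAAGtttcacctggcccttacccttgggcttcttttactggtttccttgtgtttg
Near Igsf9b, fell, chr9:27153429-27153488, forward: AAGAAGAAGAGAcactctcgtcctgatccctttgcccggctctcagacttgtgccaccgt
Near Ckap4, GC-1 alone, chr10:84012188-84012247, reverse: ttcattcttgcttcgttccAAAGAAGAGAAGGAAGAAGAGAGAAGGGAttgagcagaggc
The last holds a purine run of 29 bases. Finally, 2 range probes contain a whole mature miRNA, in capitals, by comparison with the RefSeq miRNAs of GRCm38: let-7c-5p in the first and miR-363-3p in the second. These long-RNA probes do not measure the mature miRNA.
let-7c range, chr15:85537022-85537081, forward: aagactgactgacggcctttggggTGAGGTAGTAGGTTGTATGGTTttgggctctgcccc
miR-363 range, chrX:50094854-50094913, reverse: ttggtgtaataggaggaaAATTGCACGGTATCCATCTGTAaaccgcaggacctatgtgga

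The arrays of GC-2 were dimmer than those of GC-1. The 75th percentile of the processed signal, to which each array was scaled, was 666 and 693 for GC-1, against 416 and 199.9 for GC-2. The lowest normalized log2 value of a probe well above background was -6.19 and -5.92 for GC-1, against -5.58 and -4.69 in the other line, so a dim RNA could be missed in GC-2 alone. Spike-in RNA of the labelling kit, read by 8 E1A probes above background on all arrays, read 2.07 ± 0.45 log2 (SD over the 8 probes) higher in GC-2 after this scaling. Every change below is relative to the 75th percentile and not per cell, and scaling to the spike-ins instead lowers each of them by 2.07, so that a smaller rise becomes a fall. A change given for a probe that 1 line did not show above background is a fitted value and no measure of size, and a bound is given for the leading ones. The arrays of each line lay in a row of their own on 1 slide, so position and line cannot be told apart.

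More lincRNA ranges were detected in GC-1 than in GC-2. A range counted as detected in a line where any probe of it stood well above background on both of that line's arrays, which held for 2051 ranges (63.3%) in GC-1 and 1774 (54.8%) in GC-2. Both lines shared 1678 of these. There were 174 ranges in GC-1 with no GC-2 array above background and 50 in the reverse case, and 887 ranges were above background on no array. By probe, 5.52% of lincRNA probes were above background in GC-1 alone and 1.93% in GC-2 alone, against 4.31% and 1.93% of the other probes. Of the 120 lincRNA probes in GC-1 alone that were called lower, 25 read under the GC-2 limit of detection in GC-1 as well, so that a fall cannot be stated for them. In all, 57.9% of lincRNA probes were above background in GC-1 and 49.4% in GC-2, against 62.1% and 57.3% of the other probes. The share of lincRNA probes above background on no array was 31.7%, against 29.7% elsewhere. How far the higher limit of detection in GC-2 accounts for the difference between the lines was not tested.

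Of the 2731 lincRNA probes that could be tested, in 2147 ranges, 718 (26.3%) were higher and 395 (14.5%) lower in GC-2 by limma at a Benjamini-Hochberg adjusted p under 0.05. The background over all 36693 tested probes was 24.1% higher and 21.6% lower, 45.7% in either direction. The share of rises was thus close to the background, and the share of falls was below it. Of the 1113 called probes 973 differed at least 2-fold, and 255 rises and 168 falls were at least 4-fold. By range, 621 had calls only upward, 334 only downward and 34 in both directions. The median change was 0.285 log2 over lincRNA probes and 0.068 over all tested probes.

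The split between rises and falls moved with the scaling. Of the called lincRNA probes 64.5% were higher, against 49.0% with arrays centred on their medians, 55.5% after quantile normalization, 85.5% after normexp background correction and 5.35% with arrays scaled to the spike-ins. The lincRNA median stood above the median of all probes by 0.216 log2 in the main scaling, by 0.062 after quantile normalization, by 0.288 after normexp, by 0.056 without the filter on dim probes and by 0.086 in the authors' deposited table. It was 0.124 to 0.342 with 1 array left out. Median centring and spike-in scaling shift all probes of an array alike and leave this difference as it is. Without GC-2 replicate 2, the dimmest array, 429 lincRNA probes were higher and 364 lower. The corresponding counts were 399 and 267 when GC-1 replicate 1 was left out, and 472 and 266 when GC-1 replicate 2 was left out.

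**Figure D1:**
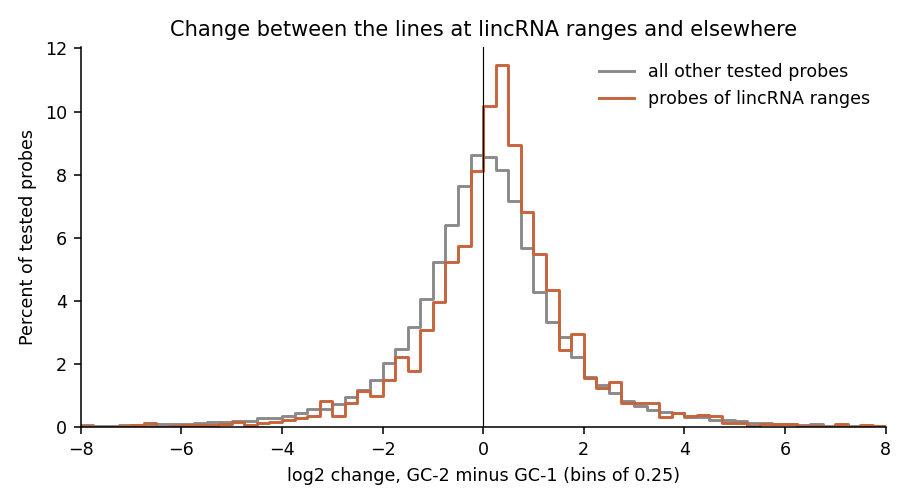
Percent of tested probes (y axis) by log2 change, GC-2 minus GC-1, in bins of 0.25 (x axis), for the 2731 lincRNA probes and the 33962 other tested probes. The lincRNA curve sits slightly to the right, with medians of 0.285 and 0.048.

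Falls were rare among lincRNA probes rich in G and C. Of probes with over 50% G and C, 32.2% were higher and only 6.5% lower (n = 800), whereas of those with up to 40%, 21.4% were higher and 26.7% lower (n = 589). Other probes showed the same order, with 30.8% higher and 12.2% lower above 50% (n = 5391) and 19.7% and 28.9% up to 40% (n = 13748). Pearson's r between change and G and C content was 0.165 over the lincRNA probes and 0.118 over the others, as a description over probes that share the same 4 arrays. The part of base composition in the count of rises was not tested.

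The share of A and G, the purines, also moved with the falls, and more among lincRNA probes than elsewhere by these counts. Of lincRNA probes with up to 40% purines 7.07% were lower (n = 750), of those over 40 to 50% 13.1% (n = 1126), of those over 50 to 60% 19.7% (n = 661) and of those over 60% 33.5% (n = 194). For the other probes the shares were 17.5%, 23.0%, 22.9% and 23.6%. The rises stayed between 23.2% and 27.6% over the same lincRNA bins. The same order of falls held among lincRNA probes above background on all 4 arrays, from 5.27% to 31.9%. The hexamer AAGAAG, searched on the probe strand, lay in 83 tested lincRNA probes, of which 16 were higher and 30 lower. It lay in 5 of the 8 largest falls, with a pair of abutting probes among these. It lay in 139 of all 4460 lincRNA probes and in 2273 of the 52145 others, of whose tested probes 22.1% were higher and 25.5% lower. These bins and this hexamer were picked after the values were seen, and the difference between lincRNA and other probes was not tested.

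**Figure D2:**
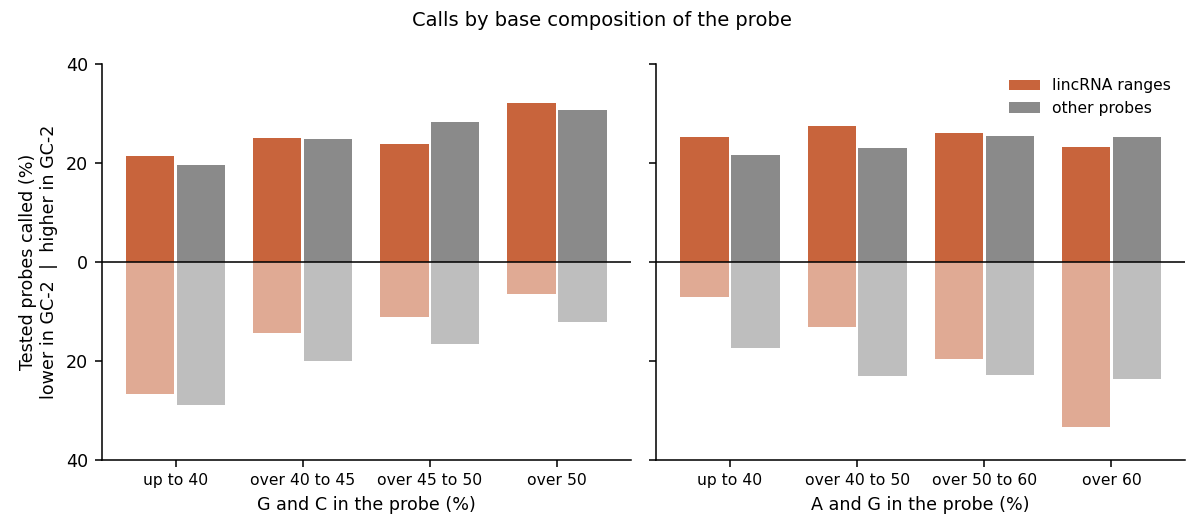
Percent of tested probes called higher (bars up) or lower (bars down, paler) in GC-2, by the G and C content (left) and the A and G content (right) of the probe. Among lincRNA probes the falls shrink from 26.7% to 6.5% with rising G and C content and grow from 7.07% to 33.5% with rising purine content.

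Among lincRNA probes the dimmest were called less often than the brightest. Of tested lincRNA probes with a mean normalized log2 signal below -4, 19.7% were higher and 14.0% lower (n = 1040). Above 0 the shares were 34.7% and 16.5% (n = 346). Other probes went the other way, with 26.6% higher and 21.6% lower below -4 (n = 7333). Above 0 they had 17.5% higher and 24.4% lower (n = 13494). The shares differed with the length of the range: 18.9% of probes in ranges up to 1 kb were higher and 16.6% lower, against 29.3% and 13.3% in ranges of 10 to 50 kb and 27.8% and 15.7% in ranges over 50 kb. Over lincRNA probes above background on all arrays, replicates had a median SD of 0.174 log2 for GC-1 and of 0.262 for GC-2.

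The 8 largest rises among ranges above background on all 4 arrays were 4.93 to 6.60 log2. In the range chr13:73472571-73483846 the reverse probe printed above read -2.41 and -2.22 for GC-1, against 4.05 and 4.53 for GC-2. The change was 6.60 ± 0.27 log2 (SE, n = 2 arrays per line, limma adjusted p = 0.000162). The range chr4:94742359-94822969, which holds the noncoding gene Junos and lies 25372 bases from a probe of the transcription factor gene Jun, read -2.08 and -1.27 in GC-1 and 4.42 and 5.12 in GC-2. Its forward probe rose by 6.45 ± 0.39 (adjusted p = 0.000335). Of the 3 Junos probes 2 could be tested, and 1 rose, by 1.12, while the other read 0.28. The Jun probe changed by -0.01 (adjusted p = 0.995).

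Further rises lay near unrelated genes. The reverse probe of chr7:50509139-50526856, beside a group of zinc finger genes, rose by 5.71 ± 0.23, from -4.06 and -4.20 to 1.499 and 1.66. The reverse probe of chr13:58474388-58487288, which starts within 10 kb of the splicing factor gene Hnrnpk, rose by 5.59 ± 0.27, from -4.85 and -5.28 to 0.64 and 0.42. The nearest of the 2 Hnrnpk probes read -0.60 (adjusted p = 0.11), and neither passed. Near Mllt6, the forward probe of chr11:97505439-97522274 rose by 4.96 ± 0.37, from -4.26 and -3.95 to 0.39 and 1.31. limma's adjusted p for these 3 probes lay between 0.000159 and 0.000572.

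Several ranges and genes of a neighbourhood on chromosome 9 rose. The overlapping ranges chr9:96670035-96682896 and chr9:96680338-96682881 rose by 5.20 ± 0.30 and 4.93 ± 0.33, from between -5.08 and -3.91 to between 0.18 and 0.87. Their probes share 47 bases, so they count as 1 observation. Of 2 further ranges there with a tested probe for each strand, 1 rose by 1.78 on the forward strand and read 0.45 on the reverse, and the other read -0.14 on the forward strand and rose by 1.47 on the reverse. Neither the 0.45 nor the -0.14 passed. The range chr9:96670035-96682896 holds C430002N11Rik, a noncoding gene whose probe rose by 2.63 (adjusted p = 0.00191). On the other strand, the range chr9:96632664-96653249 was above background in GC-2 alone, at -0.85 and -0.19, and was at least 46.4-fold higher there. All 7 probes of Zbtb38, which encodes a zinc finger protein that binds methylated DNA, rose. For 4 of them GC-1 was not above background, with bounds of at least 5.43-fold to at least 11.9-fold. The probes of Pxylp1, the next gene, disagreed: of 3 tested, 2 rose, the nearest by 2.70 (adjusted p = 0.00241), and 1 fell.

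**Figure D3:**
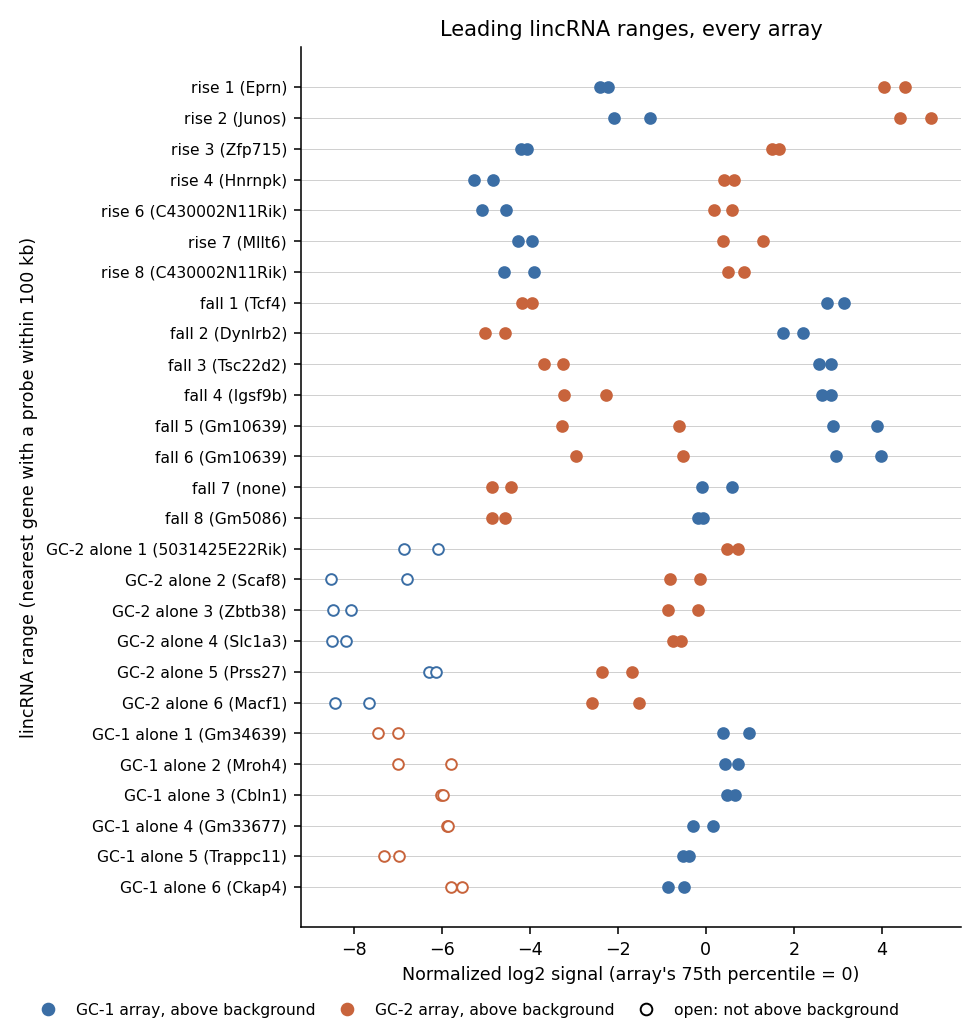
Normalized log2 signal (x axis) of the leading lincRNA ranges on every array, with GC-1 in blue, GC-2 in orange and open circles for arrays not above background. Labels give the rank and the nearest gene with a probe within 100 kb. The ranges were picked for large differences between the lines, so the lack of overlap in every row follows from the choice.

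The largest falls were of the same size. The forward probe of a range on chromosome 18, chr18:69923410-69965360, 76277 bases from a probe of Tcf4, fell by 7.02 ± 0.26, from 2.76 and 3.14 in GC-1 to -3.96 and -4.18 in GC-2. The reverse probe of chr8:119092623-119094219 fell by 6.77 ± 0.30, from 2.21 and 1.75 to -5.02 and -4.57. The nearest gene with a probe, Dynlrb2, lies 52853 bases away and read 0.48 (adjusted p = 0.149). The forward probe of chr3:58118325-58136550 fell by 6.17 ± 0.27, from 2.57 and 2.85 to -3.68 and -3.24. The limma adjusted p was 0.000146, 0.000171 and 0.000177 in this order.

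In chr9:27153416-27153677 the forward probe fell by 5.48 ± 0.37, from 2.64 and 2.84 to -3.23 and -2.26. This range lies between probe positions of Igsf9b, a cell adhesion gene of the immunoglobulin family, so it is not outside that gene's span, and of the 4 Igsf9b probes 2 fell, the nearest by 1.26 (adjusted p = 0.00863). Beside the glutathione transferase genes, the ranges chr9:78107225-78118850 and chr9:78104935-78116974 fell by 5.34 ± 0.88 and 5.20 ± 0.82. Their probes abut, and their GC-2 arrays were far apart in the same way, at -3.27 and -0.62 for the first and -2.94 and -0.52 for the second. The genes Gsta4 and Gm10639 nearby changed by -3.22 and -5.15 (adjusted p = 0.00564 and 0.00679). The reverse probe of chr16:7947710-7948066, with no gene probe within 100 kb, fell by 4.90 ± 0.33, and the forward probe of chr13:98267049-98267604 by 4.60 ± 0.25.

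Other ranges gave a signal in 1 line alone, for which only a bound can be given. The bound sets the mean of the brighter line against the lowest signal well above background on each array of the other, or the probe's own signal where that is higher. In GC-2 alone, chr5:22801058-22939737 read 0.48 and 0.73 on its forward strand and was at least 101-fold higher. The forward probe of chr17:3198868-3394643, a range that begins 204 bases from a probe of Scaf8, read -0.83 and -0.14 and was at least 47.6-fold higher, while that probe of Scaf8 read -0.35 (adjusted p = 0.346) and 1 of its 3 tested probes rose. The reverse probe of chr15:8463685-8494960 read -0.57 and -0.74 and was at least 42.1-fold higher. Both tested probes of the glutamate transporter gene Slc1a3 rose, the nearer, 89787 bases away on the same strand, by 6.03 (adjusted p = 0.00393). The ranges chr17:24152225-24169870 and chr4:123171177-123177198, the latter between probe positions of the cytoskeletal gene Macf1, were higher by at least 16.4-fold and at least 16.0-fold.

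In GC-1 alone, the reverse probe of chr13:28947034-28949166 read 0.98 and 0.38 and was at least 56.4-fold higher, with 1 of 2 probes of the developmental regulator Sox4, 91660 bases off, falling by 1.66 in GC-2 (adjusted p = 0.0101). In chr15:74474704-74474770 the forward probe read 0.74 and 0.44 and was at least 53.0-fold higher, and the forward probe of chr8:90048940-90049461 read 0.66 and 0.48 and was at least 52.3-fold higher. The ranges chr10:118427606-118430070, chr8:48480224-48480698 and chr10:84010161-84016083 were higher by at least 33.5-fold, 25.9-fold and 22.1-fold. Of the 174 ranges measured in GC-1 alone 96 gave a bound above 1-fold, as did all 50 of those measured in GC-2 alone. The others were too dim for one.

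Probes for the 2 strands of a range mostly did not move together. Among the 832 ranges with probes for both strands, both strands were above background in 367 in GC-1 and in 291 in GC-2, 1 strand in 357 and 382, and none in 108 and 159. In 397 ranges both strands could be tested. Both were called in the same direction in 38, with 34 higher and 4 lower, in opposite directions in 26, 1 alone in 193 and none in 140. Pearson's r between the changes of the strands was 0.078 and Spearman's rho 0.008 over these 397 ranges, and the strands differed by a median of 1.17 log2. For the 64 pairs whose probes overlap, the counts were 8 in the same direction, 4 opposite, 23 on 1 strand and 29 on none, with r = -0.136.

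**Figure D4:**
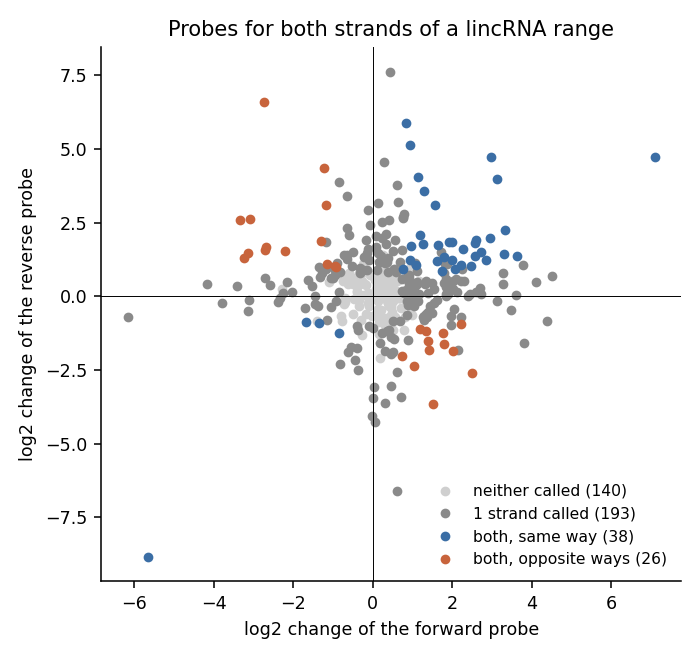
log2 change, GC-2 minus GC-1, of the forward probe (x axis) and the reverse probe (y axis) of the 397 lincRNA ranges tested on both strands. The points form a cross along the axes rather than a diagonal, with 38 pairs called the same way and 26 opposite ways.

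The opposite pairs were led by the Eprn range. Its forward probe read -1.95 and -1.02 in GC-1 and -4.72 and -3.72 in GC-2 and fell by 2.73 ± 0.47 (limma adjusted p = 0.00708), over 58 of the same base positions at which the reverse probe rose by 6.60. The probe of Eprn, a noncoding gene, lies inside the range on the reverse strand and did not follow that rise. It was above background in GC-1 alone, at a level under the GC-2 limit of detection, so no direction is given. In chr12:77544397-77564122 the forward probe fell by 3.35 ± 0.24, from -0.23 and -0.48 to -3.73 and -3.68, and the reverse probe rose by 2.58 ± 0.25, from -1.26 and -1.38 to 1.09 and 1.42. In chr2:60038543-60046318 the forward probe rose by 2.50 ± 0.23 and the reverse probe fell by 2.60 ± 0.23.

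Opposite changes were also measured in 3 other leading ranges. In chr18:90750100-90772025 the forward probe fell by 3.10 and the reverse rose by 2.62. In chrX:20555593-20591971 the forward probe fell by 2.68 and the reverse rose by 1.67, and in chr1:173250734-173259306 the forward probe rose by 2.01 and the reverse, not above background in GC-2, had a bound of at least 1.89-fold in favour of GC-1. The rise of these last 2 ranges turned to -0.40 and -0.06 with spike-in scaling, and the reverse probe of the last turned to 0.50 after normexp correction. Of the 26 opposite pairs, the strand with fewer purines was the one higher in GC-2 in 17, and 2 pairs had equal shares. The purine share of the 2 probes differed by a median of 15.8 percentage points in these pairs, against 8.33 in pairs called the same way and 10.0 in all 397. The part of composition in these differences was not tested.

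Of the tested lincRNA probes 26.3% were higher and 14.5% lower, a split that moved with the scaling. The pairs that moved together were mostly rises, with 34 of 38. The range chr15:66682293-66722977, beside the thyroglobulin gene Tg, was the largest exception. Its reverse probe read 3.45 and 3.72 in GC-1 and -4.76 and -5.75 in GC-2 and fell by 8.84 ± 0.38, and its forward probe fell by 5.64 ± 0.24, from 0.44 and 0.53 to -5.03 and -5.29 (limma adjusted p = 0.000169 and 0.000167). Neither probe was above background on GC-2 replicate 2, so both sizes rest partly on a value below detection. Probes of Tg, of the Wnt target Ccn4 and of Ndrg1 nearby fell by 3.29, 2.22 and 1.66. The range chr6:3333825-3349525 rose by 2.97 ± 0.26 on the forward strand and by 4.71 ± 0.43 on the reverse, and Samd9l, an interferon-induced gene 11246 bases away, rose by 2.11. The range chr8:26343277-26352902 was higher in GC-2 on the forward strand by at least 6.93-fold and rose by 3.99 ± 0.31 on the reverse, above background on 3 arrays, near Tacc1, whose 2 probes rose by 2.22 and 2.71. The ranges chr5:23349978-23402028, with 3.33 and 2.27, and chr4:131734714-131742542, with 2.95 and 1.99, rose on both strands as well. The 1.99 turned to -0.075 with spike-in scaling.

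Probes on the same strand of a range tracked each other more closely than the strands did, by these counts. In 149 cases at least 2 probes of a range on 1 strand could be tested, and the outermost pair was called in the same direction in 38, in opposite directions in 8, 1 alone in 56 and none in 47. Pearson's r was 0.454 and the median difference 0.758 log2. In 38 cases the probes lay on either side of the middle of the range, a median of 9422 bases apart, with r = 0.271 and a median difference of 1.31. In the other 111 they were a median of 418 bases apart, with r = 0.506 and a median difference of 0.668. The difference between these groups was not tested.

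The largest disagreements showed that 1 probe does not stand for a range. In chr1:175660642-175671878, inside the cluster of interferon-inducible Ifi genes, 1 reverse probe read 2.41, 3.10, 3.22 and 3.21 on the GC-1 and GC-2 arrays and did not pass (0.46 ± 0.31, adjusted p = 0.267). The other reverse probe, above background on 3 arrays, read -6.29, -4.98, 0.04 and 0.71 and rose by 6.01 ± 0.50 (adjusted p = 0.000777). In chr2:60531602-60543635 the reverse probe at 1 end rose by 4.67 ± 0.34, and the one at the other end changed by -0.18 ± 0.43 (adjusted p = 0.754). In chr17:22420025-22457650 a reverse probe above background on 3 arrays rose by 4.55 ± 0.40 and its neighbour changed by -0.23 ± 0.27 (adjusted p = 0.526). The largest gap of all, in chr6:47967403-47968278, rests on 1 value: a probe read -6.16, -5.27 and -6.47 on 3 arrays and 7.05 on GC-2 replicate 2, with an SE of 4.09. Ranges inside clusters of closely similar genes, as here and at the zinc finger and glutathione transferase genes, may share signal with other copies and are uncertain.

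Changed ranges also lay in runs. Ranges were joined where each lay within 1 Mb of the next. There were 44 runs of at least 3 ranges whose brightest tested probe rose, and 10 of ranges that fell. Over all ranges, 621 had calls only upward and 334 only downward, and runs were not counted for other probes. Ranges that did not pass, or went the other way, may lie inside a run. Overlapping ranges count singly, so the run of 5 rises at chr7:129293609-129301366 is 1 stretch. The range chr5:22801058-22939737 belonged to a run of 6 rises spanning chr5:22801058-23402028, with 1.48 as the smallest change and no fall among the 7 tested ranges. This run formed only 2 separate stretches, since 5 of its ranges overlap. It covers 5031425E22Rik, a noncoding gene whose probes rose by 3.63 and 1.64, and Kmt2e, a chromatin regulator 45052 bases further, rose by 1.52 at its nearest probe (adjusted p = 0.0163, 0.00533 and 0.00603). Of 8 genes tested in the run 5 were higher and 2, AI506816 and Pus7, lower by their brightest probe. Of the 2 tested Pus7 probes 1 rose and 1 fell. In this run the rise of 1.48 turned to -0.59 with spike-in scaling.

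The longest run, of 7 rises in 5 separate stretches, spanned chr17:5798656-6861042 with changes of 0.985 to 3.29, and 1 of the 10 tested ranges there fell. All 5 probes of Tmem181a inside it rose, by 2.49 to 3.36, and Zdhhc14, a palmitoyltransferase gene near its start, was at least 25.1-fold higher, while the cytoskeletal linker Ezr near its end fell by 2.93. Of the 11 genes tested inside it by their brightest probe 2 were higher and 3, Serac1, 3300005D01Rik and Tulp4, lower. The 7 tested probes of Tulp4 disagreed, with 4 called higher and 2 lower. With spike-in scaling 3 of the 7 ranges that rose turned to between -1.08 and -0.30. Another run of 6 rises, in 5 separate stretches, spanned chr17:86092322-89025839 with 0.988 to 4.71, among 11 tested ranges with no fall. Of the 6 rises, 5 turned to between -1.08 and -0.29 with spike-in scaling. Of 24 genes tested in it 3 were higher and 4 lower. The signalling inhibitor Socs5 rose by 3.73, Mcfd2 rose by 1.34 at 1 of 2 probes and the noncoding Gm30421 was at least 8.67-fold higher. Epas1, a hypoxia-inducible transcription factor gene, fell by 8.08 ± 0.29, Fbxo11 and Cript fell by 1.41 and 1.27 at 1 of 2 probes each, and Stpg4 was higher in GC-1 by at least 1.12-fold. The longest run of falls, 6 of 15 tested ranges with 3 rises among them, spanned chr2:174917150-176906929, a cluster of closely similar zinc finger genes. Its changes were -4.18 to -0.92, and 4 of the 6 turned positive after normexp correction, at 0.32 to 0.70, so only the first and the last kept their direction there. Of 10 genes tested in it 3 were higher and 2 lower.

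Ranges and the named genes in them changed together more than ranges and distant genes, by these counts. Named genes had a probe inside 582 ranges, within 10 kb of 1473 and within 100 kb of 2999. Inside the range and on the same strand, both probes were called in the same direction in 57 of 242 ranges and in opposite directions in 13, with Pearson's r = 0.476. Up to 10 kb outside the counts were 67 and 45 of 491 with r = 0.214, and from 10 to 100 kb outside 166 and 148 of 1509 with r = 0.137. On the opposite strand inside the range they were 18 and 16 of 200 with r = 0.207. For noncoding genes inside the range on the same strand, r was 0.562 over 126 ranges, and for protein-coding genes 0.333 over 101. These values describe probes read on the same 4 arrays, of which some may read 1 transcript, and the differences were not tested.

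**Figure D5:**
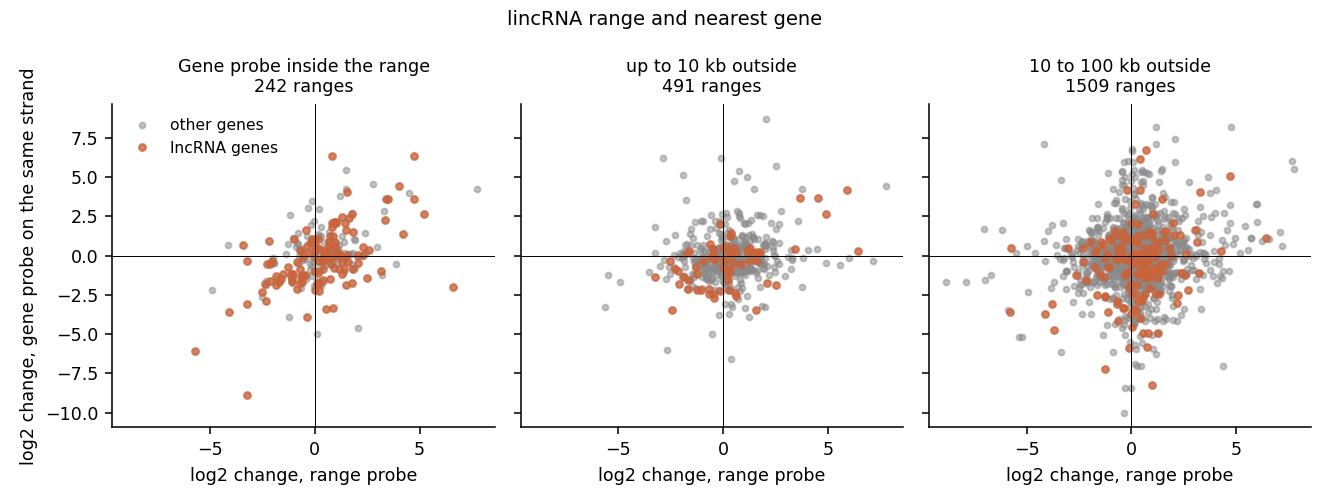
log2 change, GC-2 minus GC-1, of a lincRNA range probe (x axis) and of the nearest gene probe on the same strand (y axis), by distance. The cloud leans along the diagonal for gene probes inside the range (r = 0.476, 242 ranges) and is nearly round from 10 to 100 kb (r = 0.137, 1509 ranges).

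In 6 pairs, picked by rule, a range and a gene in or near it both changed by a large amount. The forward probe of chr8:89996710-90049453 fell by 6.68 ± 0.40, from 2.52 and 2.32 to -3.73 and -4.79. Cbln1, a secreted organizer of synapses 3289 bases away on the other strand, fell by 6.57 ± 0.31, from 1.54 and 1.33 to -5.46 and -4.81. Neither was above background on GC-2 replicate 2, so the size of both falls rests partly on a value below detection. In chr14:105988692-105994145 the forward probe exceeded its GC-2 limit in GC-1 by at least 11.3-fold, and the noncoding gene 9330188P03Rik fell on both its probes, by 6.05 ± 0.27 at the one above background on 3 arrays and with a bound of at least 59.7-fold at the other. In chr11:96112907-96125798, inside the HoxB cluster, the forward probe rose by 4.74 ± 0.24, from -5.19 and -4.90 to -0.31 and -0.30. The noncoding gene Gm53 in it was higher in GC-2 by at least 46.6-fold, and both probes of the homeobox gene Hoxb9 rose, by 2.50 and 3.26. The 2 Hoxb8 probes read -0.84 and -0.89, of which the second passed, and Hoxb7 read -0.23 and did not.

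In chr18:61809278-61825191 the reverse probe rose by 5.94 ± 0.40, above background on 3 arrays, and Carmn, a noncoding gene of cardiac and smooth muscle, rose by 4.20 ± 0.29, while Bvht beside it read -0.82 (adjusted p = 0.095). In chr1:152001112-152012796 the reverse probe rose by 4.03 ± 0.25 and the noncoding Ptgs2os2 by 4.44 ± 0.23. The cyclooxygenase gene Ptgs2, 46309 bases away on the other strand, fell by 0.96 (adjusted p = 0.0384). These ranges and the one beside Zbtb38 were picked by the size of both changes, so their likeness is a description.

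The array names 10 ranges after a known RNA, of which 4 were not tested. Among those that could be tested none rose and 1 fell, beside 24.1% higher and 21.6% lower over all tested probes. Those named XIST, TSIX and lincP21, after the RNAs of X inactivation and a p53-induced RNA, were above background on no array, and neither were the Xist and Tsix gene probes. The range H19, of an imprinted RNA, was above background on 1 array of each line and was not tested, while the gene probe of H19 rose by 2.38 ± 0.34. That gene probe was not above background on GC-1 replicate 2, so the size of its rise rests partly on a value below detection. HOTAIR read -2.78 and -3.46 in GC-1 and was not above background in GC-2, so that GC-1 was higher by at least 4.04-fold. Nearby, Hoxc11 was higher in GC-2 by at least 4.96-fold and Hoxc10 fell by 3.40.

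The remaining named ranges did not pass. NEAT1 read 5.52, 5.87, 4.57 and 5.09, a change of -0.87 ± 0.29 (adjusted p = 0.0589), while both Neat1 gene probes fell, by 2.10 and 2.34. TUG1 changed by -0.86 ± 0.30 (adjusted p = 0.0646), NRON by 0.35 ± 0.28 and PINC by 0.13 ± 0.25. The Pinc gene probe rose by 1.085, and the Tug1 gene probe read -0.39 and did not pass. KCNQ1ot1 changed by 0.38 ± 0.28 (adjusted p = 0.307), and its probe is labelled forward although the Kcnq1ot1 gene probe in the range lies on the reverse strand. Of the 4 tested Kcnq1ot1 gene probes 1, above background in GC-2 alone, was at least 11.4-fold higher there. The others did not pass. With spike-in scaling NRON, PINC and KCNQ1ot1 turned to -1.72, -1.94 and -1.69.

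A list of 59 named long noncoding RNAs, each measured by its brightest tested gene probe, gave 7 rises and 11 falls among 38 tested, with a median of -0.23 log2, beside 24.1% higher, 21.6% lower and a median of 0.07 over all tested probes, and 10 of the 50 with a probe were above background on no array. Rises included the miR-155 host gene Mir155hg, higher in GC-2 by at least 10.8-fold, Snhg11 with 3.45 ± 0.23, Dnm3os with 2.05 ± 0.36 and Lncpint with 1.60 ± 0.36. Falls included Snhg18 with -2.30 ± 0.30, the imprinted RNAs Mirg with -2.26 ± 0.29 and Airn with -2.14 ± 0.26, Mir22hg with -1.81 ± 0.38, the X-linked Firre with -1.69 ± 0.25, and Pvt1, beside Myc, with -1.54 ± 0.26. Norad, Dleu2 and Snhg15 read -0.06, -0.01 and -0.05 at their brightest probes and did not pass there. Of the 4 tested Norad probes 1 rose.

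Few range probes lay in known promoters or hairpins. In the RefSeq promoter windows of GRCm38, 250 bases before to 50 after a gene's start, 27 probes matched in the gene's direction and 28 against it. Of the first 16 could be tested, with 6 higher and none lower, and of the second 22, with 6 higher and 2 lower. Over all tested probes 24.1% were higher and 21.6% lower. A range probe in the promoter window of Wtap, which encodes a subunit of the RNA methylation complex, rose by 1.26 ± 0.32. Of the 4 probes of Wtap itself 1 rose, by 1.38 ± 0.32, and the others did not pass. For the other 5 rises in the gene's direction, the brightest gene probe did not rise or no gene probe was tested. Those at Gm36738 and Osbpl3 rose by 3.17 and 1.22, while the brightest gene probes fell by 0.99 and 1.31. The one at Dedd, a death effector domain gene, rose by 2.01, while its brightest probe read 0.05, and those at Gm34717 and Gm9222 rose by 1.49 and 1.40 with no gene probe tested. The probe with let-7c-5p, in chr15:85412264-85549139, read -1.76, -0.20, -2.63 and -2.65 and fell by 1.66 ± 0.52 (limma adjusted p = 0.0482), with GC-1 arrays far apart. The probe with miR-363-3p was above background on no array.

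Rises outnumbered falls on every chromosome with lincRNA ranges except 2 and 15. Among the other probes falls outnumbered rises on chromosomes 1, 2, 5, 11, 12, 14, 15, 16 and 19, and rises did on the rest. The shares over all tested probes were 24.1% higher and 21.6% lower. On chromosome 2, 38 probes were higher and 41 lower of 184 tested, and on 15, 24 and 30 of 131. The share of rises was highest on X, with 32.6% of 89 probes, against 28.7% of the other probes there. Chromosome 12 came next, with 32.0% of 122 probes against 15.2%. These counts move with the scaling as given above.

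Markers checked the labelled cell type. Of 13 germ cell genes 5 could be tested, and 5, Dazl, Mael, Piwil1, Kit and Acrv1, were above background on no array. Ddx4 passed that flag on all arrays but 1 of GC-2, Prm2 rose by 1.65, and Piwil2 was above background in GC-1 alone. Prm1 and Zbtb16 were above background on all arrays and read -0.38 and 0.19, and neither passed. The summed level of the germ cell list was -1.92 and -1.86 log2 in GC-1 and -1.50 and -1.43 in GC-2. Sertoli cell genes summed to 9.31 and 9.19 in GC-1 and 6.18 and 5.41 in GC-2, with 2 of 8 higher and 4 lower. Leydig cell genes summed to -1.31 and -1.20 in GC-1 and 3.65 and 3.87 in GC-2, with 3 of 6 higher and 1 lower. Beside the counts of these lists stand 24.1% higher and 21.6% lower over all tested probes. In GC-2 the Leydig sum was close to Nr5a1 alone, at 3.45 and 3.58, and the Sertoli sum to Clu alone, at 6.045 and 5.17. The falls of Fshr and Cyp11a1, like the call of Piwil2, came from a GC-1 level under the GC-2 limit of detection. A lower level in GC-2 cannot be stated for them. Fibroblast genes, with none higher and 2 of 6 lower, summed to 8.14 and 8.57 against 7.39 and 6.99, and macrophage genes, with 1 of 4 higher and 1 lower, to 4.73 and 3.99 against 2.23 and 2.39. The part of such differences in the lincRNA results was not tested.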

How the data were processed

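Total RNA of 2 arrays per line was read on a 1-colour Agilent array. Per the file headers, spot intensity was quantified with Agilent Feature Extraction 11.5.1.1, background-subtracted and detrended, and the deposited flags give, per spot, whether it was well above background. The intensities are not counts, and the number of arrays limits the precision.

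Irregular spots were left out, log2 of the processed signal was averaged over a probe's spots and each array's 75th percentile was subtracted. Where both arrays of either line showed a probe well above background, it was tested, GC-2 minus GC-1, with limma 3.58.1 (lmFit, eBayes) in R 4.3.3, with Benjamini-Hochberg adjustment over all of them at 0.05. The fit was tested on simulated data. Tables were joined with pandas 2.3.3 in Python 3.11.15. Positions are those of build mm9 in the files. RefSeq tables of GRCm38 gave names, promoter windows and miRNA sequences only, with no coordinates.

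A range stood by its brightest tested probe. Ranges were named by rule: 8 rises and 8 falls of largest size with all arrays above background, 6 bounds per line, 6 pairs of strands per direction, 4 ranges with disagreeing probes, 4 runs and 6 pairs with a gene. Of the 8 rises 1 is counted but not reported here on its own. A gene beside a range is given by its nearest probe unless all are given. The members and lists were chosen with earlier results of these data known. Alternatives were other scalings, filters, fits and the authors' deposited log2 table, whose centring is unknown and whose column medians were -3.78 to -3.53.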

Additional observations from a re-analysis of the deposited data

How the results depend on the processing

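The count of lincRNA probes higher in GC-2 lay between 399 and 693 with 1 array left out, and 3 of these 4 fits moved it by over 1.5 times: 399 without GC-1 replicate 1, 472 without GC-1 replicate 2 and 429 without GC-2 replicate 2. The count of lower probes lay between 266 and 364. Where an array was left out, the lone array of its line was assumed to vary like the other line. With spike-in scaling, chosen after the data were seen, 124 probes were higher and 2193 lower. Lower probes numbered 146 after normexp correction and 251 among probes above background on all 4 arrays. Of 93 named probes 83 passed, and 53 did under that filter, which left 58 of them and gave no value for the others. Leaving out 1 array left 71 to 79. Opposite calls on 1 strand went from 5.37% to 3.16% of pairs with all 4 arrays above background.

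After normexp correction these turned: the reverse probe of chr1:173250734-173259306 to 0.50, 1 of chr2:60531602-60543635 to 0.92, and 4 of the chromosome 2 run to 0.70, 0.61, 0.67 and 0.32. With spike-in scaling these turned: chr4:131734714-131742542 reverse to -0.075, chr1:173250734-173259306 forward to -0.061, chrX:20555593-20591971 reverse to -0.40, chr1:175660642-175671878 to -1.61, 3 of the first chromosome 17 run to -0.30, -1.08 and -0.98, 5 of the second to -0.88, -0.48, -1.08, -0.97 and -0.29, chr5:22928221-22939127 to -0.59, PINC to -1.94, KCNQ1ot1 to -1.69 and NRON to -1.72. For these results the cause was not tested, beyond the constant shift that the spike-in scaling adds.

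With the replicate number as a block, 749 probes were higher, 431 lower and 84 named probes passed. The number does not pair the samples: deviations of same-numbered arrays correlated at 0.063 over lincRNA probes, with 2 pairs. Without a filter on dim probes 659 were higher and 308 lower, and in the authors' deposited table, of 4072 probes, 544 and 273. The count of ranges detected by other flags or rules was 1591 to 2642 in GC-1 and 1305 to 2469 in GC-2. Signal over background limits what can be said of GC-2, whose arrays were dimmer.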
